A study of Mus musculus with 2 samples.

Results

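The insulin-like growth factor (IGF) system was examined in the postpartum brain through 10 genes, namely the ligands Igf1 and Igf2, the receptors Igf1r and Igf2r, and the binding proteins Igfbp2 to Igfbp7. Its members were all probes that carried the name of one of these genes on both arrays. This gave 17 of 41174 probes and 35 of 43379 spots that were not controls. A further 2 probes match a member by accession but carry other names (A330103N21Rik and D930020L01), and they were not counted. By the scanner's mark, 16 of the 17 stood well above background in 1 or both channels of each array, and these 16 covered all 10 genes.

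The samples were total RNA of the whole brain of female C57BL/6J mice 8 weeks old on postpartum day 0. TDAG51 (Phlda1) was deleted in the TDAG51-/- mice, and the TDAG51+/+ mice were wild-type. The TDAG51-/-Tg2 mice carried the same deletion together with a TDAG51 transgene. They were 1 transgenic line, and the brain-specific BAI1-AP4 promoter that drives the transgene is active mainly in the cerebral cortex and hippocampus. On the first of 2 two-colour arrays, the TDAG51-/- sample (Cy3) was hybridized with the TDAG51+/+ sample (Cy5), and on the second array with the TDAG51-/-Tg2 sample (Cy5). The dyes were not swapped, and the number of dams in each sample is not given in the labels. With 1 array for each comparison, the spread between dams was not measured and no test across animals was possible. All ratios are log2 ratios of TDAG51-/- over the control after background correction and loess normalization. The error beside a ratio is the one that the scanner software gave for the measurement of the spot, and it does not cover the variation between dams. The number of arrays limits the precision.

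Igf1 and Igf2 are secreted growth factors related to insulin, and they signal through Igf1r, a receptor tyrosine kinase that is closely related to the insulin receptor. Igf2r, the cation-independent mannose 6-phosphate receptor, takes up Igf2 and carries it to lysosomes for degradation. The binding proteins hold the ligands outside the cell and set how much of them reaches the receptors. In the adult brain, Igf1 is made by neurons and glia, whereas Igf2 comes mainly from the choroid plexus, the meninges and blood vessels.

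Each probe is a DNA strand of 60 bases, and a ratio describes only the transcripts that hold its sequence. The sequences of 3 probes are given here because the first 2 were lower in the TDAG51-/- sample on both arrays and the third differed from the other probe of its gene. They are written 5′ to 3′ with the probe coordinates of the scanner output on mm7, and no letter is marked.
Igf1 (NM_184052), chr10:87471884-87471943, plus strand: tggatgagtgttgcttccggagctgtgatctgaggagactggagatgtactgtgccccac
Igfbp2 (NM_008342), chr1:73093964-73094023, plus strand: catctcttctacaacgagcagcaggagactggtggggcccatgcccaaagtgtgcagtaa
Igfbp4 (NM_010517), chr11:99157316-99157375, plus strand: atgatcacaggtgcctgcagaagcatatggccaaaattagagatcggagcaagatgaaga
The share of G and C was 55.0% in the Igf1 and Igfbp2 probes and 45.0% in the Igfbp4 probe. An exon annotation of mm7 was not used here, so whether a probe lies in coding sequence was not determined. Where a gene had several probes, they are called a, b and c in order of falling intensity, and the 3 sequences belong to Igf1 probe a, the Igfbp2 probe and Igfbp4 probe b. Probes bind with different strength, so the order of intensities is no order of transcript levels, and sums of intensities over a marker list are compared only between samples.

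The label of the knockout was first checked on its target. The Phlda1 probe (NM_009344, chr10:110970234-110970293) had an intensity of 350.5 in the TDAG51-/- sample and 7283 in the TDAG51+/+ sample, a 17.3-fold difference. The intensities of the second array were 44.1 and 50.5, and neither channel was well above background, so this probe did not show transgene expression. The paper reports transgene expression in the brain of this line by RT-PCR and immunofluorescence. Whether the transgene holds the sequence of this probe was not determined, so the array gives no check of the transgene. The TDAG51-/- sample also gave a higher Phlda1 intensity on the first array than on the second.

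Most IGF genes, like most detected probes of the arrays, differed by less than 2-fold between the TDAG51-/- and control samples. No member probe differed by 2-fold or more from TDAG51+/+ (0 of 16), whereas 4.90% of 34571 detected probes were higher and 4.42% were lower in TDAG51-/- by this threshold. Against TDAG51-/-Tg2, 1 of 16 member probes, that of Igfbp6, was lower by 2-fold or more and none was higher, whereas 3.86% of 33802 detected probes were lower and 4.72% were higher. Igf2r is not among them, but its control channel was saturated there and its measured difference is only a lower bound. None of the 16 passed 2-fold in the same direction in both comparisons, whereas 2.69% of 33254 probes were higher and 1.37% were lower in both. With each gene represented by its brightest probe, the 10 genes had a median log2 ratio of -0.25 (TDAG51+/+ as control) and -0.53 (TDAG51-/-Tg2 as control). Both of these depended on the choice of probe, since the medians were 0.01 and -0.35 over the 16 probes, and -0.04 and -0.30 with the median of each gene's probes. The median over all 22551 genes was 0.02 in each comparison. By their brightest probe, 5 of the 10 genes were below 0 in both comparisons and 2 (Igf2 and Igfbp7) were above 0 in both. Without normalization, the brightest probes of Igf2 and Igfbp7 were below 0 in both. Of all 22551 genes, 7985 were below 0 in both and 8623 were above 0 in both. Both comparisons rest on a sample labelled TDAG51-/- in the same dye, and whether it was the same RNA is not stated in the labels, so they were not treated as independent.

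**Figure D1:**
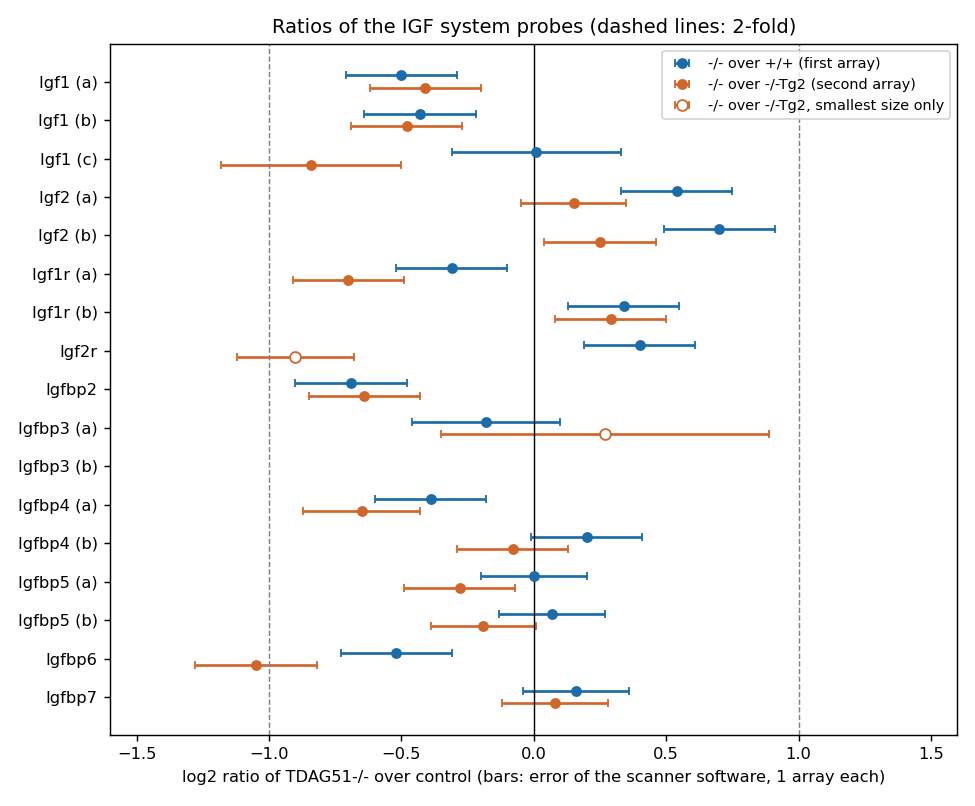
log2 ratio of the TDAG51-/- sample over TDAG51+/+ (blue, the first array) and over TDAG51-/-Tg2 (orange, the second array) for each member probe, with bars for the scanner software's error and dashed lines at 2-fold. Only Igfbp6 against TDAG51-/-Tg2 lies beyond a dashed line. Open circles are drawn at the measured ratio where the control channel was saturated (Igf2r) or near background (Igfbp3 probe a). Only a smallest size is known for these, which is 1.11-fold for Igfbp3 probe a. Igfbp3 probe b has no points because both channels were near background.

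The size of the differences was also set against the measurement error. Igf1 probe b, Igfbp2 and Igfbp6 were lower in TDAG51-/- by more than 2 scanner errors in both comparisons (3 of 16 probes, against 8.77% of all probes). No member was higher by this measure in both (0 of 16), where 11.6% of all probes were. These counts are of single measurements on 2 arrays and are no test of the genotype.

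Of the ligands, Igf1 was lower in the TDAG51-/- sample with its 2 brighter probes. The intensity of Igf1 probe a was 5889 in TDAG51-/- and 11167 in TDAG51+/+ on the first array, and 5927 in TDAG51-/- and 10609.7 in TDAG51-/-Tg2 on the second. Before normalization, both control samples (Cy5) were above both measurements of TDAG51-/- (Cy3), a comparison between dyes that were not swapped. After normalization, the log2 ratios were -0.50 (error 0.21) and -0.41 (error 0.21). The fold differences were 1.41 and 1.33, and with other background correction or normalization the ratios of this probe ranged from -0.92 to -0.50 against TDAG51+/+ and from -0.84 to -0.41 against TDAG51-/-Tg2.

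Igf1 probe b (NM_010512, chr10:87488982-87489041), 17098 bases downstream of probe a, was spotted 10 times on each array. Its mean intensity was 2576 in TDAG51-/- and 4192 in TDAG51+/+, and 2617 in TDAG51-/- and 4507 in TDAG51-/-Tg2. The log2 ratio was -0.43 ± 0.05 (SD over 9 spots, 1 outlier left out) against TDAG51+/+ and -0.48 ± 0.04 (SD over 10 spots) against TDAG51-/-Tg2. Spots ranged from -0.50 to -0.36 and from -0.55 to -0.43, so no spot reached 0. Spots on an array share the RNA, and this spread is technical. Igf1 probe c (AK050118, chr10:87420848-87420907) was dim, with intensities of 78.0 and 75.3 beside TDAG51+/+, and of 68.9 and 148 beside TDAG51-/-Tg2. Its log2 ratios were 0.01 (error 0.32) and -0.84 (error 0.34), and it did not follow probes a and b on the first array.

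Igf2 was higher in the TDAG51-/- sample after normalization, and this depended on the normalization. Igf2 probe a (NM_010514, chr7:139078075-139078135, minus strand), also spotted 10 times, had a mean intensity of 16605 in TDAG51-/- and 16663 in TDAG51+/+. On the second array the mean intensities were 15085 in TDAG51-/- and 20139 in TDAG51-/-Tg2. Before normalization, the TDAG51-/- value was thus close to TDAG51+/+ and below TDAG51-/-Tg2. After the loess step, which removes the trend of the ratio with intensity over all probes of an array, the log2 ratios were 0.54 ± 0.02 (SD over 7 spots, 3 outliers left out) and 0.15 ± 0.03 (SD over 10 spots). Without normalization the values were -0.01 and -0.42, and with median centring they were 0.15 and -0.23, so the direction against TDAG51-/-Tg2 turned. Igf2 probe b (chr7:139078490-139078549), 415 bases away, gave 0.70 and 0.25 (error 0.21 each) from intensities of 11132 and 9467 and of 10198 and 12121. Its ratios were within the scanner error of those of probe a. Without normalization probe b was at 0.23 and -0.25, and with median centring at 0.38 and -0.07. It thus stayed above 0 against TDAG51+/+ and turned against TDAG51-/-Tg2.

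**Figure D2:**
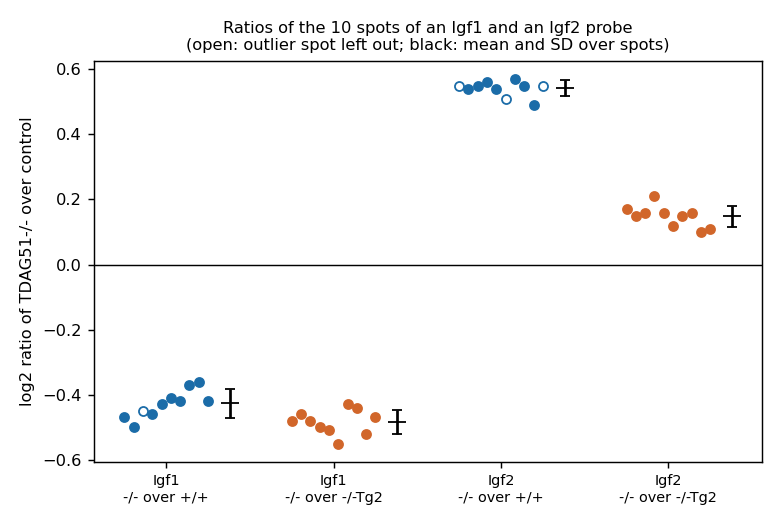
log2 ratio of TDAG51-/- over control for each of the 10 spots of Igf1 probe b and Igf2 probe a on each array, with the mean and SD over spots in black and outlier spots as open circles. After loess normalization all Igf1 spots lie below 0 and all Igf2 spots above 0, and the spots share the RNA of their array.

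Markers of the cells that make these ligands were set beside them. All 10 measured choroid plexus genes were above background in all 4 channels, and 9 of the 10 were higher in TDAG51-/- in each comparison, with medians of 0.79 (TDAG51+/+) and 0.49 (TDAG51-/-Tg2) on the log2 scale. These medians were 0.48 and 0.09 without normalization. The summed intensity was 37104 and 35203 in TDAG51-/-, 20349.5 in TDAG51+/+ and 24813 in TDAG51-/-Tg2. The brightest of these genes were Clic6, a chloride channel protein, Ttr, the thyroxine carrier transthyretin, and Prlr, the prolactin receptor. Their log2 ratios against TDAG51+/+ were 0.91, 0.89 and 0.65, and those against TDAG51-/-Tg2 were 0.49, 0.48 and 0.09. Only Kcne2 and Slc4a5 of this list, named after their values were seen, passed 2-fold in both comparisons.

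The 14 meningeal genes had medians of 0.38 and 0.17, with 9 and 8 of them higher in TDAG51-/-. Of the brightest, the collagen gene Col1a2 was at 0.40 and 0.61, Dcn at 0.37 and 0.50, and Mgp at -0.30 and -0.04. The 12 endothelial genes had medians of 0.44 and 0.21, and their brightest members were Ly6c1 (-0.31 and 0.92), Flt1 (0.49 and -0.04) and Slco1a4 (0.74 and 0.67). Without normalization, the medians of the meningeal and endothelial genes against TDAG51-/-Tg2 were -0.07 and -0.03. Of the microglial genes, 8 of 9 were lower against TDAG51+/+ and 9 of 9 against TDAG51-/-Tg2, with medians of -0.64 and -0.65. Their summed intensity was 19341 and 17677 in TDAG51-/-, 28155 in TDAG51+/+ and 27265 in TDAG51-/-Tg2. The brightest were Csf1r (-1.11 and -0.11), Trem2 (0.38 and -0.11) and Tmem119 (-0.93 and -1.34). Fewer cells of a type and less RNA per cell cannot be told apart in these samples, and the part of these cell types in the Igf1 and Igf2 ratios was not tested.

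Larger differences were found in genes that mark brain regions. All 11 cerebellar genes were higher in TDAG51-/- in both comparisons (medians 2.24 and 2.18, or 1.73 and 1.58 without normalization), and the brightest, Zic1, Cbln1 and Pcp2, were saturated in TDAG51-/- (65284 on each array). In TDAG51+/+ their intensities were 62724, 22061 and 15146, and no fold is given for them. Of the striatal genes, 8 of 9 were lower in each comparison (medians -1.47 and -1.33), with Adora2a at -2.31 and -2.15, Ppp1r1b at -0.00 and -0.20, and Penk at -1.25 and -1.33. Of the genes of cortex and hippocampus, 8 of 9 were lower in each comparison (medians -0.99 and -1.37). Among these, Cck was at -1.66 and -1.37, and Nrgn, saturated in both controls, was at -0.29 and -0.52, which are smallest sizes. Of the hindbrain genes, 9 of 12 were higher in TDAG51-/- in each comparison (medians 2.30 and 1.99). Of the olfactory bulb genes, 5 of 6 were lower in each (medians -1.52 and -1.13). The 7 pericyte genes had medians of 0.28 and -0.08, with 6 and 3 of them higher. The 7 astrocyte genes had medians of -0.03 and 0.04, with 3 and 5 of them higher. The part of brain regions in the ratios of the IGF genes was not tested.

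The receptors gave different results between probes and between arrays. Igf1r probe a (NM_010513, chr7:64082649-64082708) had an intensity of 4208 in TDAG51-/- and 6615 in TDAG51+/+, and of 3679 in TDAG51-/- and 7667 in TDAG51-/-Tg2. Before normalization, both controls (Cy5) were above TDAG51-/- (Cy3), and after it the log2 ratios were -0.31 (error 0.21) and -0.70 (error 0.21). Igf1r probe b (AK044980, chr7:64043608-64043667), 39041 bases upstream, had intensities of 402 and 342 beside TDAG51+/+ and of 406 and 377 beside TDAG51-/-Tg2, and its log2 ratios were 0.34 and 0.29 (error 0.21 each). Probe a minus probe b was -0.65 (error 0.29) against TDAG51+/+ and -0.99 (error 0.30) against TDAG51-/-Tg2, which was more than 2 errors on each array. The 2 probes of Igf1r thus differed in direction on both arrays, and which transcripts each of them binds was not determined.

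Igf2r was measured by 1 probe in 1 spot (NM_010515, chr17:11399590-11399648, minus strand). The first array gave 41209 for TDAG51-/- and 50674 for TDAG51+/+, and the second gave 21764 for TDAG51-/- and 65284 for TDAG51-/-Tg2. The TDAG51-/- values of the 2 arrays were far apart, and the TDAG51-/-Tg2 value was the saturation limit of the scanner, reached in 48 of 48 pixels of the spot. The log2 ratio was 0.40 (error 0.21) against TDAG51+/+, and Igf2r was at least 1.87-fold lower against TDAG51-/-Tg2 (-0.90 as measured). Against TDAG51+/+ the sign turned with the normalization, to -0.15 with median centring and -0.30 without normalization. In the Cy3 channel, TDAG51-/- was lower on the second array than on the first by 0.94 on the log2 scale, and 98 of 29876 probes above background in all channels (0.328%) were at least as far apart. The scanner did not mark either spot as an outlier, and the labels do not state whether both arrays received the same TDAG51-/- RNA.

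**Figure D3:**
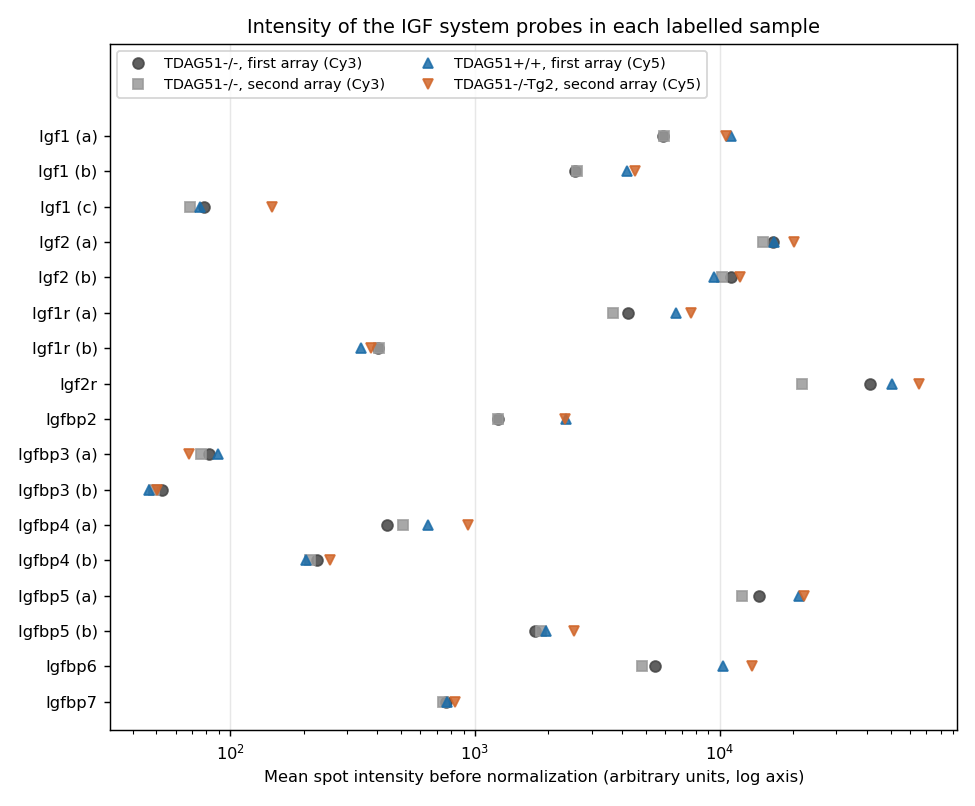
Mean intensity of each member probe before normalization, on a log axis in arbitrary units, for TDAG51-/- on the first array (dark circles) and on the second (grey squares), TDAG51+/+ (blue triangles) and TDAG51-/-Tg2 (orange triangles). The TDAG51-/- points nearly coincide for most probes but are 41209 and 21764 for Igf2r, and points of different probes are not comparable.

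Of the binding proteins, Igfbp2 and Igfbp6 were lower in TDAG51-/- in both comparisons. The others were near 0 after normalization (Igfbp5 and Igfbp7), differed between probes (Igfbp4) or were close to background (Igfbp3). Igfbp2, a major binding protein of the brain and cerebrospinal fluid, had an intensity of 1249 in TDAG51-/- and 2350.1 in TDAG51+/+, and of 1249.5 in TDAG51-/- and 2327 in TDAG51-/-Tg2. The measurements of TDAG51-/- on the 2 arrays were nearly equal, and so were those of the controls. The log2 ratios were -0.69 and -0.64 (error 0.21 each), or 1.62-fold and 1.56-fold lower, and the sign held under all processing alternatives.

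Igfbp6, which binds Igf2 in preference to Igf1, was lower in both comparisons (NM_008344, chr15:102135489-102135549). The probe gave 5437 for TDAG51-/- and 10315 for TDAG51+/+, and 4841 for TDAG51-/- and 13602 for TDAG51-/-Tg2. The highest value was that of TDAG51-/-Tg2, and the log2 ratios were -0.52 (error 0.21) and -1.05 (error 0.23). The second of these, 2.07-fold, lay within the scanner error of the threshold. It ranged from -1.49 to -1.05 under the processing alternatives.

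Igfbp4, a binding protein that is cleaved by the protease Pappa, gave different values with its 2 probes, which lie 3743 bases apart. Igfbp4 probe a (chr11:99161059-99161118) had an intensity of 437 in TDAG51-/- and 643 in TDAG51+/+, and of 507 in TDAG51-/- and 940.1 in TDAG51-/-Tg2. It was lower in TDAG51-/- on both arrays, with log2 ratios of -0.39 (error 0.21) and -0.65 (error 0.22). Igfbp4 probe b, whose sequence is given above, had intensities of 226 and 204 and of 212 and 256, and log2 ratios of 0.20 and -0.08 (error 0.21 each). Probe a minus probe b was -0.59 and -0.57 (error 0.30 each).

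Igfbp5 and Igfbp7 were near 0 after normalization. Igfbp5 (NM_010518), whose probes lie next to that of Igfbp2 on chromosome 1, had an intensity of 14446 in TDAG51-/- and 21212 in TDAG51+/+, and of 12343 in TDAG51-/- and 22157 in TDAG51-/-Tg2, with probe a (chr1:73100116-73100175). After normalization its log2 ratios were 0.00 (error 0.20) and -0.28 (error 0.21), but without normalization they were -0.55 and -0.84. Igfbp5 probe b gave 0.07 and -0.19 (error 0.20 each). Igfbp7 (NM_008048, chr5:77280659-77280718), a protein related to the family that binds insulin-like growth factors weakly, had intensities of 766 and 767 and of 742 and 827. Its log2 ratios were 0.16 and 0.08 (error 0.20 each), and without normalization they were -0.01 and -0.15.

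Igfbp3, the main carrier of Igf1 in serum, was close to background in all samples. Igfbp3 probe a (BC058261, chr11:7158599-7158658) had intensities of 82.4 and 89.0 beside TDAG51+/+, and of 75.8 and 67.8 beside TDAG51-/-Tg2. Its log2 ratio was -0.18 (error 0.28) against TDAG51+/+, and it exceeded TDAG51-/-Tg2 by at least 1.11-fold, where the control channel was not well above background. Igfbp3 probe b (NM_008343), whose coordinates span 1010 bases (chr11:7160474-7161483), was between 46.5 and 52.7 in all channels. Its level in brain was not detectable above background with this probe.

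The 2 control samples were then compared through the arrays, which asks whether the transgene line resembled the wild-type. The log2 ratio against TDAG51+/+ minus that against TDAG51-/-Tg2 gives TDAG51-/-Tg2 minus TDAG51+/+ only where TDAG51-/- is equal on both arrays. This difference of ratios was above 0 for 13 of 16 member probes with a median of 0.27. It was above 0 for 16837 of 33254 probes with a median of 0.01. The Cy5 channels alone, scaled between arrays, gave a median of 0.19 and also 13 of 16 above 0. Over all probes, the Cy5 median was -0.00, with 16577 of 33254 above 0. With the brightest probe of each gene, 7 of 10 genes were above 0 by either measure, with medians of 0.27 (ratios) and 0.11 (Cy5). The scanner error of the difference of ratios was 0.29 or more for each member probe. Igf2r was the only member past 2-fold by the ratios (1.30), where 6.00% of all probes were. It was at 0.36 by the Cy5 channels, with TDAG51-/-Tg2 saturated. The larger part of its 1.30 lay between the TDAG51-/- channels of the 2 arrays (-0.94 in Cy3, second minus first). By the Cy5 channels, 0 of 16 members passed 2-fold, whereas 7.10% of all probes did, and the saturated Igf2r value is a lower bound there too.

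Among the ligands, Igf1 probes a and b were at -0.10 and 0.08 and Igf2 probes a and b at 0.23 and 0.31 in the Cy5 channels. The dim Igf1 probe c differed from the other Igf1 probes, at 0.69. Igfbp6 was at 0.36, Igfbp4 at 0.47 with probe a and 0.19 with probe b, and Igfbp2 at -0.06. For comparison, the samples labelled TDAG51-/- were in Cy3 on both arrays. Over all probes their robust SD between arrays was 0.14, whereas that of the Cy5 channels, which held different samples, was 0.40. Igf2r was the member farthest from 0 in this Cy3 comparison.

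**Figure D4:**
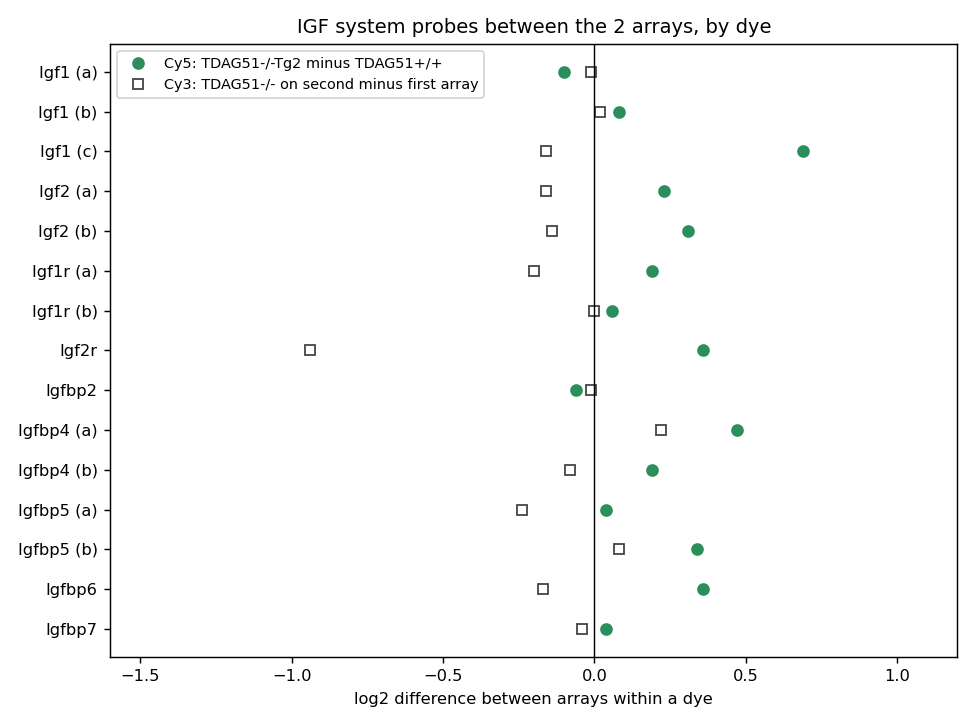
log2 difference between the arrays within a dye for the 15 member probes above background in all 4 channels, with TDAG51-/-Tg2 minus TDAG51+/+ in Cy5 (green circles) and TDAG51-/- on the second minus the first array in Cy3 (open squares). Igf2r has the lowest Cy3 value of the members (-0.94), and most Cy5 values lie above 0.

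Other genes of IGF and insulin signalling were read from a list of 37 genes, of which 36 were on the array and 33 were detected. With the brightest probe of each gene, 2 were higher and 2 were lower than in TDAG51+/+ by 2-fold or more (5.06% and 4.45% of all genes). Against TDAG51-/-Tg2, 2 were higher and 4 lower (4.78% and 3.84% of all genes). In both comparisons, Igfbp1 and Pappa were higher and Igfbpl1 and Insrr were lower, which was 2 of 33 genes in each direction, and 2.77% of all genes were higher and 1.55% lower in both. The median log2 ratio of the list was 0.02 and -0.07, close to that of all genes.

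Igfbp1, a binding protein known mainly from liver and decidua, had an intensity of 558 in TDAG51-/- on each array, 258 in TDAG51+/+ and 189.8 in TDAG51-/-Tg2, and it was 2.25-fold and 3.23-fold higher in TDAG51-/-. Pappa, the protease that cleaves Igfbp4 and frees the bound ligand, was at 444 in TDAG51-/- and 145 in TDAG51+/+, and at 463 in TDAG51-/- and 118 in TDAG51-/-Tg2. Its log2 ratios were 1.59 (error 0.28) and 2.00 (error 0.33), but its other probe gave 0.28 and 0.33. Both genes were higher on each array, and for Pappa only 1 of its probes showed this size.

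Insrr, a receptor of the insulin receptor family, was at 131 in TDAG51-/- and 867 in TDAG51+/+, and at 111 in TDAG51-/- and 445 in TDAG51-/-Tg2, which was 5.61-fold and 3.27-fold lower. Igfbpl1, a secreted protein related to the binding proteins, was at 145 in TDAG51-/- and 425 in TDAG51+/+, and at 188 in TDAG51-/- and 759 in TDAG51-/-Tg2. It was 2.64-fold and 3.29-fold lower, and its other probe was 2.50-fold and 1.59-fold lower. The values of TDAG51-/- were below those of the controls for both genes.

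Downstream of the receptors, Irs1, the adaptor that links them to phosphoinositide 3-kinase, was at 0.87 (error 0.22) and 0.60 (error 0.21), with 0.69 and 0.28 for its other probe. The kinase Akt1 was at 0.13 and 0.41 with its brightest probe and at 0.39 and 0.08 with the other, and the insulin receptor Insr at 0.39 and -0.23 with its brightest probe and at -0.33 and 0.17 with the other. Ghr, the growth hormone receptor, was at -0.22 and 0.24 with its brightest probe. Its other 4 probes were between -0.60 and 0.46 against TDAG51+/+ and between -0.61 and -0.15 against TDAG51-/-Tg2. Grb10, an adaptor that dampens signalling of these receptors, was at -0.04 and -0.07 with its brightest probe and at 0.67 and 0.74 with its second brightest. None of these genes reached 2-fold with any of the values given here.

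The other 2 genes past 2-fold against TDAG51-/-Tg2, named after their values were seen, were the kinase Gsk3b (2.04-fold lower, and 1.18-fold with its other probe) and growth hormone, Gh. The Gh intensity was 75.5 in TDAG51-/- and 74.3 in TDAG51+/+, and 109 in TDAG51-/- and 1512 in TDAG51-/-Tg2, so the high value was in 1 sample only. Gh is made in the pituitary, and of the 7 pituitary genes, which include Gh, the brightest were Lhb (-0.28 and -0.15), Prl (0.13 and -4.23) and Pomc (-0.22 and -0.24). The summed intensity of these 7 genes was 4663 and 4694 in TDAG51-/-, 5174 in TDAG51+/+ and 10992 in TDAG51-/-Tg2. Of the last sum, Prl gave 5192 and Gh 1512, and only these 2 genes passed 2-fold against TDAG51-/-Tg2. The 7 genes had medians of 0.13 and -0.24, with 5 and 2 of them higher in TDAG51-/-. The part of pituitary tissue in the Gh value was not tested.

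**Figure D5:**
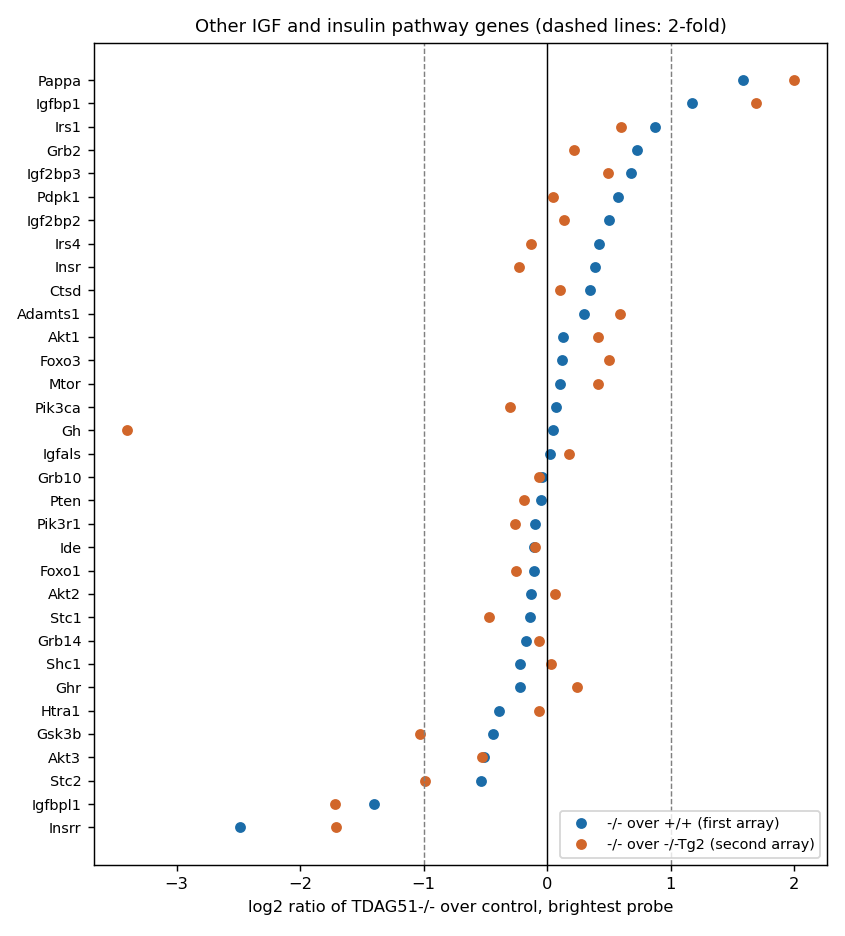
log2 ratio of TDAG51-/- over TDAG51+/+ (blue) and over TDAG51-/-Tg2 (orange) for the brightest probe of each of the 33 detected genes of IGF and insulin signalling that are not members, with dashed lines at 2-fold. Pappa and Igfbp1 lie above and Igfbpl1 and Insrr below 2-fold in both comparisons, and Gh is low only against TDAG51-/-Tg2 (-3.40).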

How the data were processed

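Whole-brain RNA of 3 genotypes was measured on 2 two-colour Agilent arrays of the mouse genome, on the same slide. The authors deposited the scanner output (Agilent Feature Extraction 9.5.3.1), which holds the mean and background intensity of the spots and their log10 ratios of Cy5 over Cy3 with an error. A log2 ratio of Cy3 over Cy5 was also deposited (35801 and 35717 probes), and its normalization is not given in the sources used here.

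Intensities were corrected by normexp with an offset of 50 and then normalized by loess in limma 3.58.1 (R 4.3.3). Control spots and outlier spots (375 and 300) were left out, and spots of a probe were averaged. Single channels were scaled by Aquantile for comparisons between arrays. Median intensities were 338 (Cy3) and 364 (Cy5), and 336 and 385 for the second array, over backgrounds of 39.0 to 44.0. The median SD between spots of 245 replicated probes was 0.06 (log2). Where a channel was saturated or near background, the fold is a lower bound. Counts used the 2-fold threshold of the study, and counts of genes took the brightest probe for a gene. The paper also names a p-value filter for its changed genes, which was not applied here. Errors of a difference were added in quadrature. Python 3.11.15 (numpy 2.4.6, pandas 2.3.3) and, for plots, matplotlib 3.10.9 were used.

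Names came from the files and, by accession (22951 probes), symbol (6659) or synonym (3109), from a GRCm38.p6 gene table, of which no coordinates were used. The other 8455 probes kept the name in the file. The members and lists were chosen with earlier results of these data known. The named genes were all members, Phlda1, pathway genes past 2-fold in both comparisons, 6 further pathway genes (Irs2 was not found on the array) and the 3 brightest genes of each marker list set beside a result. A gene among these is not reported here, and the counts include it. The alternatives were offset 0, the scanner's and the deposited ratios, median centring, no normalization, other filters and other choices of probe. The normalization was tested on simulated data.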

Additional observations from a re-analysis of the deposited data

Results flagged for a closer look

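Igf2r differed between the comparisons. Its log2 ratio was 0.40 against TDAG51+/+ and -0.90 against TDAG51-/-Tg2, a difference of 1.30, so the same gene was above 0 on one array and below 0 on the other. This difference was not tested, since each comparison had 1 array. The probe had 1 spot, the TDAG51-/-Tg2 channel was saturated, and the intensity of TDAG51-/- itself was 41209 beside TDAG51+/+ and 21764 beside TDAG51-/-Tg2.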

How the results depend on the processing

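Without normalization, the median log2 ratio of all probes was -0.19 (TDAG51+/+) and -0.24 (TDAG51-/-Tg2), against 0.02 on each array after loess, and the member medians were then -0.55 against TDAG51+/+ and -0.86 against TDAG51-/-Tg2. With the median over a gene's probes, the member medians were -0.04 and -0.30 in place of -0.25 and -0.53, and 1 instead of 2 pathway genes was at least 2-fold higher in both comparisons, since the probes of Pappa differ. The members at least 2-fold lower against TDAG51-/-Tg2 numbered 2 with median centring (Igf2r and Igfbp6) and 3 without normalization (with Igf1r as well). The members higher by 2-fold numbered 1 with the scanner's log ratio and 1 with the deposited ratio, in each case Igfbp3 (1.47 and 1.15), whose control channel was near background. Between TDAG51-/-Tg2 and TDAG51+/+, 0 members passed 2-fold by the Cy5 channels and 2 by the scanner's ratios, Igf2r and Igfbp3 (-1.71 for the latter). The cause was not tested where none is given. The sign of a gene's ratio held under all alternatives for 5 of 10 genes against TDAG51+/+ and 8 of 10 against TDAG51-/-Tg2. These alternatives included the median of a gene's probes in place of its brightest probe. Igf1r turned to 0.02 against TDAG51+/+ with the median of its probes. The member median against TDAG51+/+ was -0.40 with median centring, and that of TDAG51-/-Tg2 minus TDAG51+/+ was 0.11 by the Cy5 channels in place of 0.27. Keeping the outlier spots, an alternative chosen after seeing the data, left both member medians at -0.25 and -0.53. No paired analysis was possible because each comparison was made on 1 array. Ratios of probes near background, such as those of Igfbp3, are limited by signal over background, and those of Igf2r by saturation.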
